A study of Mus musculus with 6 samples.

Results

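The mitochondrially encoded genes are the features of the deposited expression table that lie on the mitochondrial genome, the chromosome named MT. All 17 such features were kept, of 27366 in the table: 13 protein-coding genes, 2 ribosomal RNA genes and 2 transfer RNA genes. The annotation of MT (GENCODE M21, mouse build GRCm38) holds 37 genes, and the 20 with no row in the table are all transfer RNA genes. All 17 had the same start and end as in that annotation. The sequenced RNA came from cultured satellite cells (the muscle stem cells) of mice, kept in growth medium with 20% fetal bovine serum and basic FGF and labelled day 4. Both groups shared this culture. They differed in the labelled genotype, control (3 libraries) or Islr knockout (3 libraries). The series states that satellite cells were sorted by flow cytometry for having or lacking Islr, the gene of a secreted leucine-rich repeat protein. How the knockout was made, the strain and the age of the mice were not given in the sources used here. No label ties a library to its own animal or culture, so a p-value here reflects only the spread among these libraries, some of which may be technical.

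Islr did not separate the libraries by label. Control 1, 2 and 3 held 181.1, 12.8 and 1579 scaled reads of Islr, and Islr knockout 1, 2 and 3 held 256.7, 7.38 and 10.9. A scaled read is a read divided by the size factor of its library. Islr was thus higher in the library labelled Islr knockout 1 than in control 1 and control 2, and control 2 was close to knockout 2 and 3. As no source used here says which part of Islr was deleted, whole-gene reads cannot settle whether the labels hold. Every group and library below is named by its label, and every direction between groups rests on these labels. Library totals ran from 16456917 to 20531276 reads. All 8 satellite cell and myoblast markers, among them Pax7 and Myod1, had reads in all 6 libraries, and their summed level ran from 69298 to 138914 in control and from 59848 to 131118 in knockout.

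The mouse mitochondrial genome is a small circle that encodes core subunits of 4 complexes of oxidative phosphorylation, with the ribosomal and transfer RNAs needed to translate them. It is transcribed from both strands as long precursors. Transfer RNAs lie between most of the genes, and their excision frees the mRNAs and ribosomal RNAs. Mt-Nd6 is the only mRNA made from one strand, while the other 12 and both ribosomal RNAs come from the other strand. Every protein that replicates, transcribes, cuts or translates this genome is encoded in the nucleus. In bulk RNA, fewer cells of a type and less RNA per cell cannot be told apart.

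Some members share their sequence with the nuclear genome. Annotated unprocessed pseudogenes on the minus strand of chromosome 1 (GRCm38, 24611535 to 24616197) repeat, in the same order, 7 mitochondrial genes from the second part of mt-Co1 to the first part of mt-Nd4. Without gaps, the copies of mt-Co2 (Gm28661, 681 bases), mt-Atp6 (Gm10925, 678 bases), mt-Co3 (Gm28437, 783 bases), mt-Nd4l (Gm10222, 294 bases) and mt-Nd4 (Gm28439, 876 of the gene's 1378 bases) had 0 differing bases. The copy of mt-Nd3 (Gm28438, 345 bases) had 1. The copy of mt-Co1 (Gm29216) covers bases 1054 to 1545 of that gene and had 6, all of them at or before base 1066. Positions here are counted from 1 at the gene's first base, and the differences are T1056A, C1057T, A1059G, A1060G, C1062A and A1066T, with the mitochondrial base first. The start of this copy and the end of the mt-Co2 copy, printed 5′ to 3′ on the gene's own strand, show how abruptly the shared stretch begins and how little of mt-Co2 is outside it. In the first pair the differing bases are in capitals. In the second pair the bases of mt-Co2 past the copy's end are in capitals.
mt-Co1, bases 1054 to 1113, MT:6381-6440, plus strand: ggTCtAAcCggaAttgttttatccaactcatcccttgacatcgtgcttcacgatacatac
Gm29216, bases 1 to 60, chr1:24616138-24616197, minus strand: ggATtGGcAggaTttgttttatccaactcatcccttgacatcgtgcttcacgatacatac
mt-Co2, bases 641 to 684, MT:7653-7696, plus strand: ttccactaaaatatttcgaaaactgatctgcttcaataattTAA
Gm28661, bases 641 to 681, chr1:24614885-24614925, minus strand: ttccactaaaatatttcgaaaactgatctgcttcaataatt

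To measure how much of each gene is shared, every stretch of 100 bases in a member was looked up in all other annotated transcripts. The share found there was 99.5% for mt-Co2, 99.5% for mt-Atp6, 99.9% for mt-Co3, 97.6% for mt-Nd3 and 98.5% for mt-Nd4l. It was 60.8% for mt-Nd4, 30.8% for mt-Co1 and 3.19% for mt-Nd2, and 0 for mt-Nd1, mt-Nd5, mt-Nd6, mt-Cytb, both ribosomal RNAs and mt-Atp8. The share depends on the length of the stretch. With 50 bases it was 51.1% for mt-Co1, 8.19% for mt-Nd2, 7.61% for mt-Nd5 and 1.04% for mt-Rnr2. With 150 bases it was 23.6% for mt-Co1 and 0 for mt-Nd2. A second set of pseudogenes, on chromosome 2, matched less closely: Gm13340 differed from mt-Co1 at 37 of 1545 aligned bases. No annotated transcript covers the counterpart of mt-Atp8 on chromosome 1, but 233 bases lie between the copies of mt-Co2 and mt-Atp6 there, as many as between the same points on MT. The reading frame of mt-Atp8 runs into that of mt-Atp6. The 43 shared bases are in capitals in the last 80 bases of mt-Atp8, and only the 161 bases of mt-Atp8 ahead of them can be told from mt-Atp6.
mt-Atp8, bases 125 to 204, MT:7890-7969, plus strand: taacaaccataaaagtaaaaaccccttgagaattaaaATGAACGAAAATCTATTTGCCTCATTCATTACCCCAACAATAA

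Levels differed between the members by several orders of magnitude and split into an abundant and a scarce set. Per kb of annotated length, mt-Co1, a core subunit of cytochrome c oxidase, was highest at 103285 ± 19562 scaled reads per kb (SD, n = 6 libraries). Mt-Cytb, the cytochrome b of complex III, followed at 50537 ± 13875, and mt-Nd1, a membrane subunit of complex I, at 49578 ± 9812. These last 2 did not differ beyond their spread, as mt-Cytb was above mt-Nd1 in 3 of 6 libraries. The remaining complex I genes of the abundant set were mt-Nd2 (22105 ± 7678 per kb), mt-Nd5 (15967 ± 7868), mt-Nd4 (13265 ± 4632) and mt-Nd6 (12204 ± 5044). Mt-Nd2 was above mt-Nd5 in 6 of 6 libraries, whereas mt-Nd5 was above mt-Nd4, and mt-Nd4 above mt-Nd6, in 4 of 6. Both ribosomal RNAs stood below all of these mRNAs on the mean level per kb, mt-Rnr1 at 5530 ± 1475 and mt-Rnr2 at 4864 ± 1120. How ribosomal RNA was removed or mRNA selected before sequencing was not given in the sources used here, so these levels cannot be read as levels in the cell.

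A 22.2-fold gap separated mt-Rnr2 from the next member, mt-Co2, at 219 ± 74.4 scaled reads per kb. Below it came mt-Co3 at 96.9 ± 51.9, mt-Atp6 at 38.7 ± 12.6, mt-Nd3 at 30.4 ± 13.5, mt-Nd4l at 11.9 ± 16.3 and mt-Atp8 at 4.10 ± 10.05. Of these 6 scarce protein-coding genes, 5 are the members with at least 97.6% of their 100-base stretches found elsewhere, and the sixth, mt-Atp8, lies between their counterparts. Of the 7 abundant ones, mt-Nd4 has the highest share, 60.8%. Mt-Co2 and mt-Co3 encode core subunits of the same enzyme as mt-Co1. The counting rule for reads that match 2 places of the genome was not given in the sources used here. Its part in these low levels was not tested.

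The chromosome 1 copies themselves held few reads. The 7 pseudogenes of chromosome 1 summed to 2667 reads over the 6 libraries, 0.124% of the reads on MT genes. On chromosome 2, outside this total, Gm13340 held 1181 reads. Mt-Co2 and Gm28661 together reached 398 scaled reads per kb, which left mt-Co1 259-fold higher. For mt-Co3 with Gm28437 the sum was 192 per kb (mt-Co1 537-fold higher), and for mt-Atp6 with Gm10925 it was 171 (604-fold). When the level was instead taken over the bases shared with no other annotated transcript, an alternative chosen after the data were seen, mt-Co1 stood at 198972, mt-Nd4 at 36413 and mt-Nd2 at 25242 per kb, with mt-Nd4 then above mt-Nd2. These values assume that no read came from a shared base, and they are upper estimates. No such level is given for mt-Co2, mt-Atp6, mt-Co3, mt-Nd3 and mt-Nd4l, in which 1 (mt-Co3) to 6 (mt-Nd3) bases are unshared, too few to measure on.

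**Figure D1:**
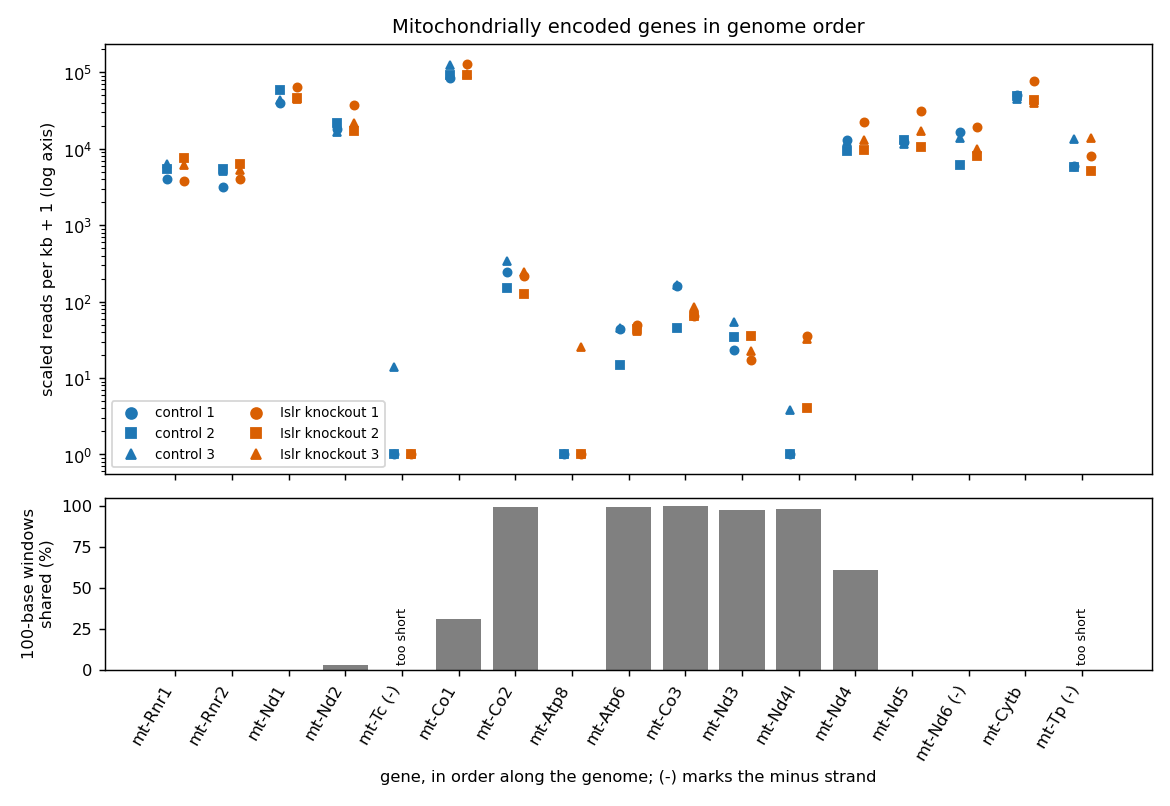
Upper panel, scaled reads per kb plus 1 (log axis) of the 17 members in the order of the mitochondrial genome, 1 point per library, with colour for the group and shape for the replicate number; lower panel, the percentage of each gene's 100-base stretches found in other annotated transcripts (the 2 transfer RNA genes are too short for one). The stretch from mt-Co2 to mt-Nd4l lies below both of its neighbours, mt-Co1 and mt-Nd4, in all 6 libraries, and all of its genes but mt-Atp8 have tall bars.

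Mt-Co1 alone made up 40.3% (library labelled Islr knockout 1) to 53.4% (control 3) of all reads on MT genes. Mt-Cytb took 13.8% to 18.8%, mt-Nd1 11.4% to 16.8%, mt-Nd5 5.78% to 11.5%, mt-Nd2 4.73% to 7.71%, mt-Nd4 3.93% to 6.10% and mt-Nd6 0.951% to 2.81%. The highest share of mt-Nd5, 11.5%, was in the library labelled Islr knockout 1, the library with the lowest share of mt-Co1.

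**Figure D2:**
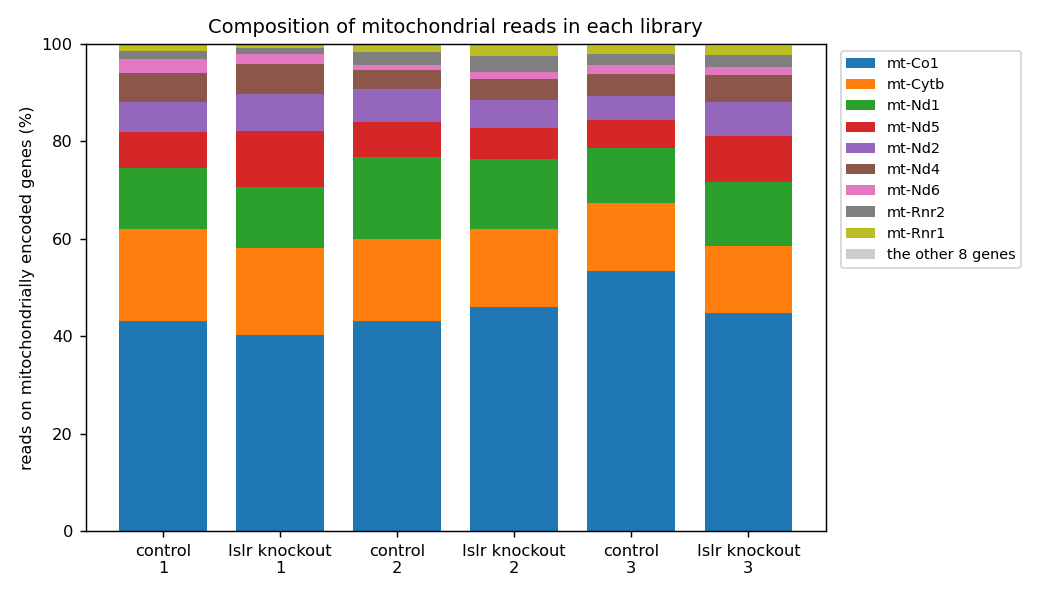
Share of all reads on MT genes (percent, stacked to the whole) taken by the 7 abundant mRNAs, the 2 ribosomal RNAs and the other 8 members in each of the 6 libraries, set side by side by number. Mt-Co1 forms the widest band throughout, between 40.3% and 53.4%, and the band of mt-Nd5 is widest in the library labelled Islr knockout 1.

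The main comparison asked whether any member differed with the labelled genotype. None passed the test. Of the 17 members, 15 had a mean of at least 1 scaled read and were tested with all 20344 features above that level, and 0 were called (limma on log2(scaled reads + 1), Benjamini-Hochberg adjusted p = 1.0 for each). The background was the same, as 0 of 20344 features (0%) were called. An unadjusted p under 0.05 was found for 1 of the 15, mt-Nd4l, against 276 features (1.36%) in all. Mt-Nd4l reached the mean of at least 1 only through the knockout group (mean 6.80, against 0.284 in control). Its p and its lack of overlap are therefore no support for a difference. With the replicate number as a block the count was again 1 of 15 (mt-Nd4l), against 933 features (4.59%). Every SE and interval of a fold change below comes from the fit without the block, and the permutation tests are unpaired too. With the block the SE was smaller for each of the 15. It was 0.22 in place of 0.45 for mt-Nd6, 0.21 in place of 0.34 for mt-Nd4 and 0.49 in place of 0.60 for mt-Atp6. On the recovered reads, edgeR gave an unadjusted p under 0.05 to 0 of 14 members tested, against 162 features (1.14%). Its filter had removed mt-Nd4l, so edgeR says nothing about that gene. DESeq2 gave such a p to 1 of 17 (mt-Nd4l), against 318 features (1.17%). Neither edgeR nor DESeq2 called a feature. With the block these counts were 0 of 14 members against 609 features (4.28%) in edgeR and 0 of 17 against 714 features (2.61%) in DESeq2, which then called 7 features, none of them on MT. The groups did not overlap, with knockout higher, for 1 member (mt-Nd4l), where 539 features (2.65%) did so. They did not overlap in the other direction for 0 members, where 429 features (2.11%) did. Log2 fold changes were positive for 12 of the 15, with a median of 0.13, beside a median of 0.03 and 53.0% positive among all features tested.

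Complex I, which takes electrons from NADH, holds 7 mitochondrially encoded subunits. Mt-Nd5, one of its proton-pumping membrane subunits (MT 11742 to 13565), stood at 22415, 23661 and 21087 scaled reads in control 1, 2 and 3, and at 57317, 19488 and 30770.3 in Islr knockout 1, 2 and 3. Knockout 1 and 3 were above all 3 control libraries and knockout 2 was below all of them. The group means were 22388 ± 1287 for control and 35858 ± 19421 for knockout (SD, n = 3), and the log2 fold change was 0.54 ± 0.39 (SE), with a 95% confidence interval from -0.34 to 1.42. A 2-fold difference in mt-Nd5 therefore lay inside the interval, and so did no difference.

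Mt-Nd2, another membrane subunit (MT 3914 to 4951), stood at 19095, 22484 and 17247 scaled reads in control and at 38478, 17582 and 22786 in knockout. Its log2 fold change was 0.35 ± 0.33 (SE), and the groups overlapped. Mt-Nd4, also a pumping subunit (MT 10167 to 11544), stood at 18108, 12970.2 and 16691 in control and at 30471, 13349.8 and 18086 in knockout. It was higher in the knockout library of each of the 3 numbers, by 0.75, 0.04 and 0.12 on the log2 scale, with a log2 fold change of 0.30 ± 0.34 (SE). Mt-Nd1 (MT 2751 to 3707) stood at 38264, 55597 and 41589 in control and at 62377, 43945 and 42904 in knockout. Its control 2 value was above knockout 2 and 3, and the log2 fold change was 0.14 ± 0.29 (SE).

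Mt-Nd6, the complex I subunit of the other strand (MT 13552 to 14070, minus), stood at 8558, 3142 and 7148 scaled reads in control and at 9853, 4191 and 5113 in knockout. Both libraries numbered 2 were lowest in their group, and the log2 fold change was 0.05 ± 0.45 (SE). The last 14 bases of mt-Nd5 overlap mt-Nd6 on the opposite strand. The handling of strand in the counting is not given, so reads of mt-Nd6 cannot be told from antisense reads of its neighbours. On reads per kb, the level of mt-Nd6 relative to the other protein-coding members combined was 0.625, 0.210 and 0.437 in control and 0.431, 0.308 and 0.351 in knockout, a log2 difference of -0.10 (exact permutation test, two-sided, p = 0.9).

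The other complex I members were scarce. Mt-Nd3 (MT 9459 to 9806) stood at 7.78, 11.7 and 18.8 scaled reads in control and at 5.70, 12.0 and 7.53 in knockout, with overlapping groups. Mt-Nd4l (MT 9877 to 10173) had 0, 0 and 0.852 scaled reads in control and 10.3, 0.923 and 9.21 in knockout. Each knockout library was thus above every control library in scaled reads. In reads, knockout 2 and control 3 were tied at 1 each, and only their size factors set them apart. The log2 fold change was 2.30 ± 0.87 (SE), with a 95% confidence interval from 0.33 to 4.27 and an adjusted p of 1.0 in limma (0.92 with the replicate block, and 0.511 to 1.0 over the alternatives). In reads this was 1 in the control group against 21 in the knockout group, a ratio of 19.5 relative to library size factors, with an exact 95% interval from 3.14 to 807 that covers counting error only. The unadjusted p of mt-Nd4l was 0.0269 over all libraries and was above 0.05 without control 1, without knockout 1 and without knockout 3. As mt-Nd4l entered the test only through its knockout reads, these values are no support for a difference.

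Mt-Nd4l overlaps mt-Nd4 by 7 bases and is a near-complete match to Gm10222 on chromosome 1. Gm10222 had 13 reads in all, at 1.11, 5.83 and 3.41 scaled reads in control and 2.28, 0 and 0.837 in knockout. Summed with it, mt-Nd4l stood at 1.11, 5.83 and 4.26 in control and at 12.5, 0.923 and 10.04 in knockout. On that sum the groups overlapped, as knockout 2 was below all 3 control libraries.

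Over the 7 complex I genes the summed level was 106448, 117866 and 103782 scaled reads in control and 198512, 98569 and 119675 in knockout. The log2 difference was 0.28, with overlapping groups (exact permutation test, two-sided, p = 0.6). With 3 libraries against 3, this test cannot give a p below 0.1. It was run on 10 values (shares, sums and ratios), and the Benjamini-Hochberg adjusted p was 1.0 for each.

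Complex III has 1 mitochondrially encoded subunit, mt-Cytb (MT 14145 to 15288). It stood at 57276, 55559 and 50912 scaled reads in control and at 88939.9, 49145 and 45054 in knockout. Knockout 1 was above all control libraries and knockout 2 and 3 were below all of them. The log2 fold change was 0.09 ± 0.32 (SE), with a 95% confidence interval from -0.64 to 0.83.

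Complex IV, which passes electrons to oxygen, has 3. Mt-Co1 (MT 5328 to 6872) stood at 131809.6, 142625 and 194789 scaled reads in control and at 201293, 141232 and 145707 in knockout. Control 3 and knockout 1 were the 2 high libraries, 1 in each group, and the log2 fold change was 0.06 ± 0.30 (SE). Mt-Co2 (MT 7013 to 7696) stood at 165.5, 103.7 and 228.4 in control and at 148.3, 85.8 and 167.4 in knockout. It was lower in the knockout library of each number, with log2 differences of -0.16, -0.27 and -0.45, and its log2 fold change was -0.29 ± 0.43 (SE). Mt-Co3 (MT 8607 to 9390) stood at 123.3, 35.0 and 130.4 in control and at 50.2, 50.7 and 66.1 in knockout, and its log2 fold change was -0.57 ± 0.57 (SE). Control 2 was the lowest of all 6 libraries for mt-Co3, so the groups overlapped. As mt-Co1 made up nearly all of it, the complex IV sum gave a log2 difference of 0.06 (exact permutation test, two-sided, p = 0.6).

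Complex V, the ATP synthase, has 2. Mt-Atp6, the channel subunit of its membrane part (MT 7927 to 8607), stood at 28.9, 9.32 and 29.8 scaled reads in control and at 33.1, 29.5 and 27.6 in knockout. Only control 2 was apart, and the log2 fold change was 0.55 ± 0.60 (SE). Mt-Atp8 (MT 7766 to 7969) had 0 reads in 5 of 6 libraries and 5.02 scaled reads in knockout 3, and was below the level tested. The complex V sum gave a log2 difference of 0.66, with overlapping groups (exact permutation test, two-sided, p = 0.2). That p is the lowest among the shares, sums and ratios tested this way. With its identical copy Gm10925 added, mt-Atp6 stood at 107, 107 and 142 in control and at 132, 112 and 98.8 in knockout, and control 2 no longer stood apart. On that sum control 3 was the highest library and knockout 3 the lowest, so the direction differed between the numbers. Summed with its copy, mt-Co2 stood at 359, 182 and 383 in control and at 286, 177 and 247 in knockout, still lower in the knockout library of each number.

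The 2 ribosomal RNAs form the cores of the small and large mitochondrial ribosomal subunits. Mt-Rnr1, the 12S RNA (MT 70 to 1024), stood at 3792, 5182 and 5962 scaled reads in control and at 3571, 7253 and 5927 in knockout. Mt-Rnr2, the 16S RNA (MT 1094 to 2675), stood at 4924, 8544 and 8198 in control and at 6294, 9849 and 8363 in knockout. Both were lowest in the libraries numbered 1. Mt-Rnr2 was higher in the knockout library of all 3 numbers, by 0.35, 0.20 and 0.03, and its log2 fold change was 0.20 ± 0.31 (SE, 95% confidence interval from -0.51 to 0.90). Their sum was 8716, 13727 and 14160 in control and 9865, 17102 and 14290.4 in knockout, a log2 difference of 0.17 (exact permutation test, two-sided, p = 0.5). An exact sign-flip test over the 3 numbers gave p = 0.25, the smallest it can give. The same test gave 0.25 for the complex V sum and at least 0.75 for every other share, sum or ratio.

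Per read of protein-coding members, ribosomal RNA stood at 0.0295, 0.0434 and 0.0405 in control and at 0.0202, 0.0592 and 0.0460 in knockout. The lowest and the highest ratio were both in the knockout group, in knockout 1 and knockout 2. The log2 difference of this ratio, which does not depend on the scaling of a library, was 0.03 (exact permutation test, two-sided, p = 0.9).

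Of the 2 transfer RNA genes in the table, mt-Tp had a mean of at least 10 scaled reads and mt-Tc did not. Mt-Tp carries proline and ends the MT gene order on the minus strand, where its 67 bases lie at MT:15356-15422. The anticodon is in capitals.
mt-Tp, whole gene, minus strand: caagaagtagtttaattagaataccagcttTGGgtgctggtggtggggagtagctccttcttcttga
Mt-Tp stood at 402, 388 and 891 scaled reads in control and at 536, 339 and 919.8 in knockout. Both libraries numbered 3 were above the other 4, and the log2 fold change was 0.09 ± 0.45 (SE). Mt-Tc, which carries cysteine, had 1 read in all, in control 3. Whether reads on mt-Tp came from the mature RNA or from a longer precursor was not tested.

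**Figure D3:**
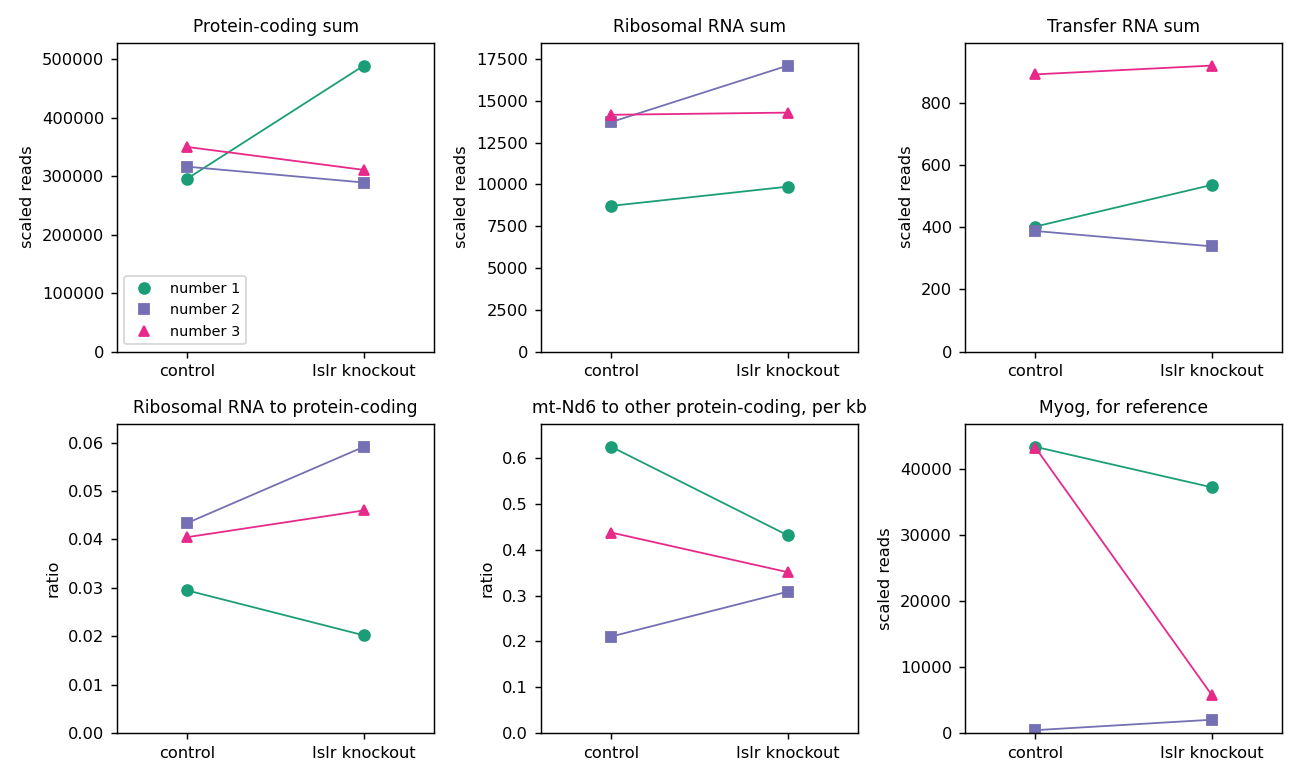
Values of each library in control and Islr knockout, with lines joining libraries of the same number, in 6 panels with linear axes from 0: summed scaled reads of the protein-coding, ribosomal RNA and transfer RNA members, the ratio of ribosomal RNA to protein-coding reads, the ratio of mt-Nd6 to the other protein-coding members per kb, and the scaled reads of Myog. The protein-coding sum was 488977 in the library labelled Islr knockout 1 and between 289111 and 349871 in the other 5, and the groups overlapped in all 6 panels.

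The libraries numbered 1 carried most of the difference in the protein-coding members. The share of all reads on MT genes was 1.63%, 1.69% and 2.09% in control and 2.66%, 1.67% and 1.93% in knockout, a log2 difference of 0.19 (exact permutation test, two-sided, p = 0.6). Counting error was small beside this spread: the widest 95% Wilson interval ran from 2.65% to 2.67%. The protein-coding sum was 295851, 316197 and 349871 scaled reads in control and 488977, 289111 and 310702 in knockout, a log2 difference of 0.14 (exact permutation test, two-sided, p = 0.9). Without the library labelled Islr knockout 1 the difference in this sum was -0.09, and without both libraries numbered 1 it was -0.15. The direction also turned for mt-Nd1 (-0.04), mt-Co1 (-0.10), mt-Nd4 (-0.02), mt-Nd6 (-0.32) and mt-Cytb (-0.21) without that library, and the log2 fold change shrank from 0.35 to 0.038 for mt-Nd2 and from 0.54 to 0.13 for mt-Nd5. Other libraries moved single members too. Mt-Atp6 went from 0.55 to 0.030 without control 2, and mt-Co2 from -0.29 to -0.0017 without Islr knockout 2 and to -0.026 without control 3. Mt-Co3 went from -0.57 to -0.29 without control 1, -0.25 without control 3 and -1.18 without control 2, and mt-Nd3 from -0.52 to -0.22 without control 3, -0.30 without Islr knockout 1, -0.80 without control 1 and -0.78 without Islr knockout 2. Mt-Nd2 went to 0.60 and mt-Nd5 to 0.91 without Islr knockout 2. Without control 1 the sign changed for mt-Co1 (-0.05), mt-Rnr1 (-0.05), mt-Rnr2 (-0.06) and mt-Tp (-0.09), without control 2 for mt-Nd6 (-0.39) and mt-Tp (-0.12), without Islr knockout 2 for mt-Rnr1 (-0.09) and without Islr knockout 3 for mt-Tp (-0.28).

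Number by number, the 7 abundant mRNAs (a mean of at least 1000 scaled reads, a limit set after the data were seen) gave 3 different pictures. Between the libraries numbered 1, all 7 were higher in knockout, by 0.20 (mt-Nd6) to 1.35 (mt-Nd5) on the log2 scale, with a median of 0.71 beside 0.02 for all features tested. Between those numbered 2, 2 were higher and 5 lower, from -0.35 (mt-Nd2) to 0.42 (mt-Nd6), with a median of -0.18. Between those numbered 3, 4 were higher and 3 lower, from -0.48 (mt-Nd6) to 0.55 (mt-Nd5), with a median of 0.04. Each such difference rests on 1 library a side and has no test.

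**Figure D4:**
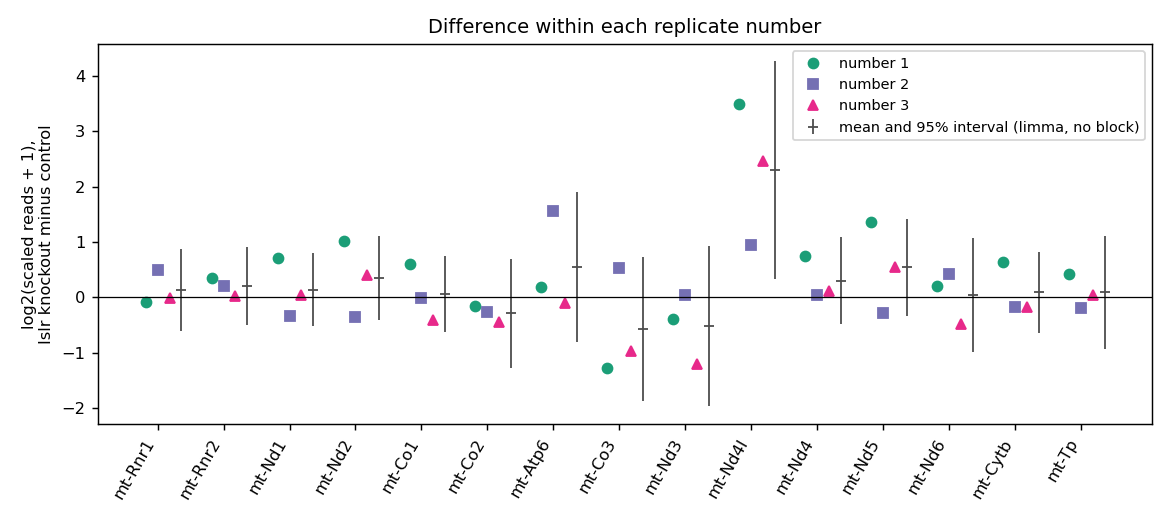
Difference in log2(scaled reads + 1), Islr knockout minus control, of each of the 15 tested members between the libraries of the same number, 1 point per number, with the mean fold change (dash) and its 95% confidence interval (vertical line) from limma without the block. Every interval except that of mt-Nd4l, which entered the test only through its knockout reads, includes 0. Among the 7 abundant mRNAs the point of number 1 lies above 0 throughout.

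Markers of other cells and of muscle differentiation were read in the same libraries. The 8 differentiation markers summed to 343263, 2829 and 150518 scaled reads in control and to 331125, 10428 and 31670.0 in knockout, and 7 of 8 had reads in all libraries. Among them Myog, a transcription factor of early differentiation, stood at 43369.9, 417 and 43261 in control and at 37228, 1998 and 5737 in knockout. The part of differentiation in the MT levels was not tested. The 6 fibro-adipogenic markers summed to 266 to 1457 in control and 315 to 4389.9 in knockout, and the 6 endothelial markers to 306 to 618 and 310 to 1388. The 6 macrophage markers summed to 40.8 to 85.2 and 52.5 to 298, and the 6 Schwann cell markers to 515 to 521 and 517 to 1502. In the library labelled Islr knockout 1 these 4 sums were 315, 310, 52.5 and 517, each the lowest of the knockout group. In control 1 they were 387, 306, 84.4 and 521. The share of reads on MT genes was 2.66% in Islr knockout 1 and 1.63% in control 1. No marker was at 0 in all 6 libraries. The part of these cells in the MT levels was not tested.

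Nuclear genes that act on the mitochondrial genome and its RNA gave no call either. In 7 lists, 0 members passed the adjusted threshold with or without the replicate block (limma). Without the block 0 had an unadjusted p under 0.05, where 276 of all features tested (1.36%) did. The 77 mitochondrial ribosomal protein genes had the lowest median log2 fold change, -0.29, with 2 positive and 75 negative, and for 12 of the 77 every knockout library was below every control library. For all features tested the median was 0.03 and the share with knockout below control throughout was 2.11%. By number, the list's median was -0.38, -0.05 and -0.42. Mrps35, of the small subunit, stood at 673, 857 and 814 scaled reads in control and at 461, 729 and 468 in knockout (log2 fold change -0.53 ± 0.28, SE). Mrpl46, of the large subunit, stood at 662, 664 and 764 and at 399, 631 and 481 (-0.49 ± 0.26), and its groups did not overlap. With the block the unadjusted p (limma) was 0.033 for Mrps35 and 0.053 for Mrpl46. Of all features tested, 933 (4.59%) were under 0.05 with the block.

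Lists closer to RNA synthesis and translation lay in the same direction without calls. All 12 translation factors were negative, with a median of -0.24. Groups did not overlap, with knockout lower, for 2 of the 12 translation factors, 2 of 17 aminoacyl-tRNA synthetase genes, 1 of 10 transcription genes, 2 of 18 replication genes and 0 of the RNA processing and biogenesis genes, beside 2.11% of all features tested. Taco1, a translational activator of mt-Co1, stood at 327, 287 and 315 scaled reads in control and at 253, 224 and 224 in knockout, so that every knockout library was lower (log2 fold change -0.40 ± 0.27, SE, with a 95% confidence interval from -1.02 to 0.21). Tsfm, an elongation factor, averaged 626 ± 106 in control and 492 ± 86.7 in knockout (SD, n = 3). Of 17 aminoacyl-tRNA synthetase genes, 2 were positive and 15 negative, with a median of -0.16. Sars2, the serine enzyme, averaged 384 ± 16.8 and 293 ± 72.2, with groups that did not overlap.

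Of 10 transcription genes, 1 was positive and 9 negative, with a median of -0.24. They are led by unadjusted p by Mterf2 (119 ± 28.7 in control, 82.4 ± 13.1 in knockout) and Mterf1b (33.3 ± 1.71 and 23.1 ± 8.95), members of a family of mitochondrial transcription termination factors. Of 37 genes of RNA processing, modification and stability, 7 were positive and 30 negative, with a median of -0.13. Ptcd2 averaged 886 ± 59.2 and 713 ± 144, and Mrm3, a methyltransferase of the 16S RNA, averaged 308 ± 46.0 and 241 ± 14.1. Slirp, the 38th gene of that list, has no row in the table. Of 18 genes of replication and the nucleoid, 4 were positive and 14 negative, with a median of -0.10. By number this list's median was -0.067, -0.31 and 0.12, positive in number 3. The 2 genes whose groups did not overlap were Fen1, a flap endonuclease (26.7 ± 3.64 and 16.4 ± 2.02), and Ssbp1, the mitochondrial single-strand binding protein (836 ± 63.0 and 682 ± 70.8). Of 11 biogenesis regulators, 6 were positive and 5 negative, with a median of 0.03. Ppargc1a, a coactivator of mitochondrial biogenesis, stood at 63.3, 111 and 120.2 in control and at 84.4, 107 and 179.9 in knockout, and Nrf1 averaged 1109 ± 330.0 and 898 ± 243.

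**Figure D5:**
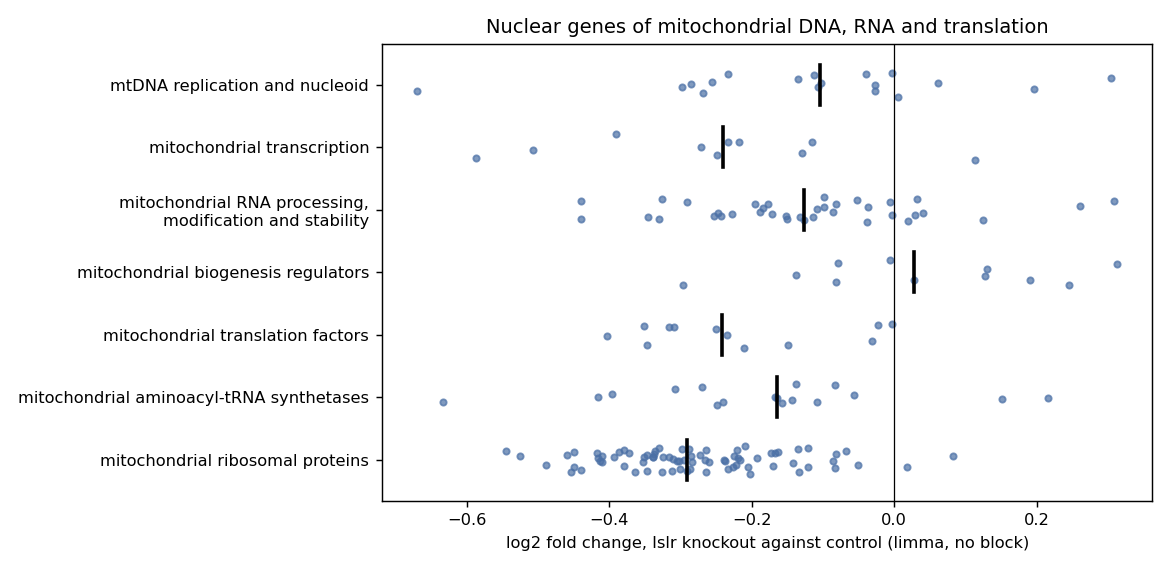
Log2 fold change (Islr knockout against control, limma) of each tested gene in the 7 nuclear lists, 1 point per gene, with a black bar at the median of each list and a line at 0. The median of the mitochondrial ribosomal protein genes, -0.29, is the lowest of the 7, and that of the biogenesis regulators, 0.03, is the only one above 0.

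The authors' deposited table gives its own comparison for all 17 members. In the authors' deposited table, the adjusted p is 0.9998 for every member, and mt-Nd4l has the lowest p, 0.0282, with a log2 fold change of 4.20. Next in the authors' deposited table come mt-Nd5 (p = 0.127, log2 fold change 0.68), mt-Co3 (p = 0.166, -0.79) and mt-Nd2 (p = 0.287, 0.42).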

How the data were processed

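The authors' main deposited table gives a signal per gene and library, gene reads divided by 1 size factor per library, together with a log2 fold change and p-values, raw and adjusted, for their own comparison, per the file headers. The submitters' processing notes list edgeR 3.18.1, DESeq2 1.16.1, HTSeq, HISAT2 2.0.5 and Trimmomatic without saying what each did. Genome build, annotation and handling of multiply matching reads were not given in the sources used here. Feature coordinates matched GENCODE M21 (GRCm38) for all 17 members. After 36 damaged lines were dropped, 27366 features remained, each with at least 1 read. The worth of 1 read in each library was found from low values: 100.0% of values came out whole within 0.01, and the 480 genes shared with a deposited table of raw counts had identical counts. Size factors ran from 0.858 to 1.195. The column of control 1 carries a library number that swaps 2 digits of its label, while the other 5 columns match theirs. Another 12 per-library columns (FPKM) were left unused.

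The main test was limma 3.58.1 (trend, robust) on log2(scaled reads + 1) over the 20344 features with a mean of at least 1; tests were two-sided, and the threshold was an adjusted p (Benjamini-Hochberg, over all of them) under 0.05. Fold changes on this scale understate those of low genes. The code was checked on simulated counts with the same spread for every gene and no pairing, which does not measure power in these libraries. Shares, sums and ratios were compared by an exact permutation test over all 20 assignments of the libraries to 2 groups of 3. Intervals of fold changes come from the limma fit and the spread between libraries, while intervals of read shares (Wilson) and of the read ratio (exact) cover counting error only. edgeR 4.0.16 and DESeq2 1.42.0 on the recovered reads were alternatives, with other pseudocounts, filters and scalings, and with libraries left out. Deviations from the group means of libraries with the same replicate number correlated at 0.689, 0.633 and 0.625 over 14280 genes, and those of different numbers at -0.513 to -0.245. Taking deviations from each group's mean pushes the different-number values below 0 once the same-number values are above it, so they add no evidence. From the same-number values the numbers were taken to pair the libraries. This pairing comes from the data, as the labels do not say what a number marks.

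Every MT member is accounted for. From each nuclear list the 2 genes with the smallest unadjusted p were named, except 1 that is not reported here, and pseudogenes were those of chromosome 1 that match MT. The members, lists and naming rule were chosen with earlier results of these data known. Sequences and alignments (biopython 1.88) came from GENCODE M21 transcripts.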

Additional observations from a re-analysis of the deposited data

How the results depend on the processing

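No MT member was called in any of the 22 alternatives. Over all features the count past the threshold was 0 in every alternative except DESeq2 with the replicate block, which called 7, none on MT; the cause was not tested. The replicate block changed no other call. It moved the count of features with an unadjusted p under 0.05 from 276 to 933, and over all alternatives this count ran from 91 to 1942. Among MT members such a p (limma) was found for 4 of 15 without both libraries numbered 2, with the block, where 1942 of 20344 features had one. Without Islr knockout 2 it was found for 2 of 15, beside 262 of 20344 features. With the mean of the members' log2 levels in place of their sum, the difference was -0.10 for transfer RNA and -0.27 for complex IV; in this mean the scarce members weigh as much as the abundant ones.

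Leaving out 1 library, or both libraries of a number, turned the direction of several uncalled differences, and the cause was not tested. The log2 fold change then ran from -0.089 to 0.42 for mt-Rnr1, -0.059 to 0.37 for mt-Rnr2, -0.15 to 0.37 for mt-Nd1, -0.22 to 0.30 for mt-Co1, -0.021 to 0.57 for mt-Nd4, -0.39 to 0.33 for mt-Nd6, -0.21 to 0.28 for mt-Cytb and -0.28 to 0.48 for mt-Tp. The log2 difference ran from -0.062 to 0.35 for the share of reads on MT, -0.15 to 0.30 for the protein-coding sum, -0.056 to 0.39 for the ribosomal RNA sum and -0.28 to 0.48 for the transfer RNA sum. It ran from -0.29 to 0.49 for the ratio of ribosomal RNA to protein-coding reads, -0.54 to 0.25 for the ratio of mt-Nd6, -0.026 to 0.55 for complex I, -0.21 to 0.28 for complex III and -0.22 to 0.30 for complex IV. Leaving out both libraries of a number for sums and ratios, and using only genes with under 50% shared stretches, were chosen after the data were seen. The complex V sum, mt-Nd2, mt-Nd5, mt-Atp6, mt-Co2, mt-Co3, mt-Nd3 and mt-Nd4l kept their sign in each alternative that gave them a value, but not their size. Over the same omissions the values ran from 0.023 to 0.71 for mt-Nd2, 0.13 to 0.95 for mt-Nd5, 0.030 to 0.88 for mt-Atp6, -0.59 to -0.0017 for mt-Co2, -1.18 to -0.22 for mt-Co3, -0.80 to -0.18 for mt-Nd3, 1.70 to 3.13 for mt-Nd4l and 0.11 to 0.95 for complex V. Sums with the chromosome 1 copies were not among these alternatives, so the kept signs do not cover them. With Gm10925 added, mt-Atp6 was higher in knockout for numbers 1 and 2 and lower for number 3. Depth limits mt-Atp8 (6 reads in all), mt-Tc (1 read) and mt-Nd4l (1 read in control and 21 in knockout).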
